A study of Homo sapiens with 6 samples.

Results

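The genes described here form the G1 control module of the cell cycle: the D-type cyclins CCND1, CCND2 and CCND3, their kinases CDK4 and CDK6, the CIP/KIP inhibitors CDKN1A, CDKN1B and CDKN1C, the INK4 inhibitor CDKN2C, and RB1. They were taken by gene symbol from the deposited count table, which gave 10 genes of 60664 in all. Of these, 9 passed the filter on low counts and were among the 17258 genes tested, and CDKN2C did not. Poly-A RNA was sequenced from H7 cells, an established human embryonic stem cell line kept on Matrigel in mTeSR Plus medium, in 3 control libraries and 3 libraries of a line in which the RNA-binding protein SAMD4A was knocked down. The series asks how SAMD4A bears on self-renewal and lineage choice. Both groups are H7 cells with the same culture and library protocols, and the labels give no time point. The sources used here do not state the knockdown construct or whether the line is 1 clone.

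D-type cyclins are made in response to growth signals and activate CDK4 and CDK6. These kinases phosphorylate the retinoblastoma protein, the product of RB1, which otherwise holds E2F transcription factors inactive and keeps the cell in G1. INK4 proteins block CDK4 and CDK6 directly, while CIP/KIP proteins act on several cyclin and CDK pairs. Pluripotent stem cells are known for a short G1 phase, in which this checkpoint acts weakly.

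Levels are given as CPM, counts of a gene relative to the summed counts of the tested genes in its library, in parts per 1000000, after TMM scaling. A gene was called when its edgeR quasi-likelihood test, adjusted by the Benjamini-Hochberg method over all genes tested, gave a p under 0.05. Library totals ran from 19270688 to 21355171 counts. SAMD4A had 52.7 ± 3.08 CPM in the controls against 28.1 ± 0.66 CPM after knockdown (SD, n = 3 each), 53.4% of control, with every knockdown library below every control library. Markers of pluripotent cells were high in every library: 6 genes summed to 5605 to 5749 CPM in control and 7112 to 7565 CPM in knockdown. DNMT3B, a DNA methyltransferase of early embryonic cells, made up most of that rise, from 1296 to 2728 CPM. POU5F1 and TDGF1 were also called higher, NANOG was called lower (78.5 to 66.1 CPM, edgeR adjusted p = 0.011), and SOX2 and LIN28A did not pass the test. Markers of other cell types summed to at most 16.6 CPM in any library, except a fibroblast-like list at 331.5 to 369 CPM in control and 283 to 314 CPM in knockdown. In that list COL1A1 and COL1A2 gave nearly all counts and were both called lower (log2 -0.26 and -0.14, edgeR adjusted p = 0.0032 and 0.024), and DCN was at 0 counts in all 6 libraries. Among the knockdown libraries, replicate 1 had the highest sum in each list of early lineage markers. In knockdown replicates 1, 2 and 3, mesendoderm markers summed to 5.28, 2.90 and 1.51 CPM, against 2.13 to 2.26 CPM in control. Endoderm markers summed to 1.69, 0.61 and 0.43 CPM, against 0.19 to 0.49 CPM in control. Trophoblast or amnion markers summed to 1.79, 0.51 and 0.49 CPM, against 1.18 to 1.72 CPM in control. The neural sums are given with CCND1, and the part of all these markers in the results was not tested.

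Of the 9 genes tested, 6 were called, 1 higher and 5 lower in knockdown. Among all tested genes 51.7% were called, 26.1% higher (4503) and 25.6% lower (4423). Scaling by total counts only gave 2704 higher and 6410 lower and moved the median log2 fold change of all genes from -0.01 to -0.17. In 6 of the 9 genes all knockdown libraries lay on the same side of all controls, against 58.3% of all tested genes. The median log2 fold change of the 9 genes was -0.24. The lower genes were CDK6, CCND1, CCND2, CDKN1B and RB1, and the higher one was CDK4. The series measures message in bulk, so fewer cells that express a gene and less RNA per cell cannot be told apart.

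**Figure D1:**
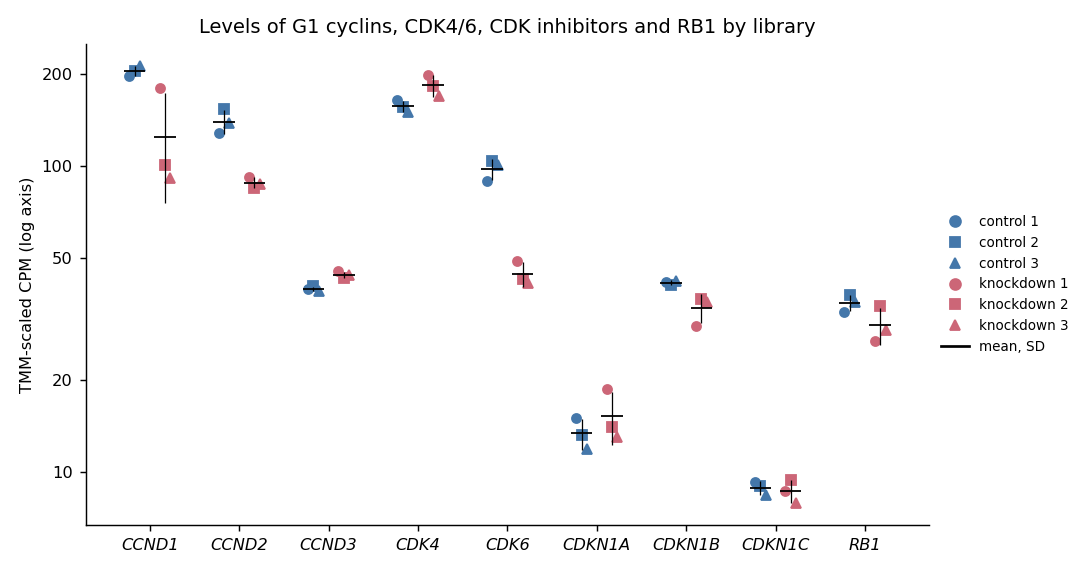
Levels in TMM-scaled CPM on a log axis for the 9 genes tested, with 1 point per library, bars at the mean and lines at ± 1 SD (n = 3 each). The knockdown points of CCND2 and CDK6 lie together below all control points, while CCND1 has 1 knockdown library at 181 CPM and the other two at 101 and 91.95 CPM.

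CCND1, the D-type cyclin best known as a target of mitogen and WNT signals (ENSG00000110092, chromosome 11, 69641156 to 69654474, GRCh38), was the most abundant of the 3 D-type cyclins in control. Control replicates 1 to 3 had 198, 205 and 213 CPM, and knockdown replicates 1 to 3 had 181, 101 and 91.95 CPM. All knockdown libraries were below all controls, but replicate 1 stayed close to them and the other two were at about the same low level. The log2 fold change was -0.72 ± 0.17 (SE, edgeR adjusted p = 0.0020). It was -1.08 without knockdown replicate 1, and DESeq2, with a log2 fold change of -0.71, did not call the gene (DESeq2 adjusted p = 0.063).

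The split of CCND1 between knockdown libraries ran beside that of early neural markers. CCND1 was 1.88 times as high in knockdown replicate 1 as in the mean of replicates 2 and 3. Over the 15377 genes that averaged 1 CPM or more, 535 were at least 1.5 times higher in that library in this sense and 557 were lower by the same factor. The 5 neuroectoderm markers PAX6, SIX3, SOX1, LHX2 and HES5 summed to 11.1 to 13.6 CPM in control, and to 16.6, 0.71 and 0.70 CPM in knockdown replicates 1, 2 and 3. Of the 5, 3 were tested and 0 were called over all 3 knockdown libraries (at an unadjusted p under 0.05, 0 as well). PAX6, SIX3 and SOX1 were at 0 counts in knockdown replicate 2, and HES5 was at 0 in replicate 3. Their part in the CCND1 values was not tested.

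CCND2, a D-type cyclin (ENSG00000118971, chromosome 12, 4269771 to 4305353), fell evenly. The controls had 128, 154 and 138 CPM and the knockdown libraries 92.5, 85.1 and 87.85 CPM. The knockdown libraries lay closer together than the controls did, and the groups did not overlap. Its log2 fold change was -0.66 ± 0.06 (SE, edgeR adjusted p = 6.2e-07), 63.1% of the control level.

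CCND3, the third D-type cyclin (ENSG00000112576, chromosome 6, 41934934 to 42050357), did not pass the test. The controls had 39.7, 40.5 and 39.1 CPM and the knockdown libraries 45.4, 43.25 and 44.01 CPM. The groups did not overlap, with knockdown above control under TMM scaling, while with total counts only the log2 fold change was -0.0057. Under TMM it was 0.15 ± 0.07 (SE, edgeR adjusted p = 0.070), with a 95% interval from 0.0095 to 0.30.

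Levels of different genes were compared per kilobase of exon, as CPM divided by the exon length in the deposited table. On this scale the summed level of the 3 D-type cyclins was 86.0, 92.1 and 90.9 in control and 79.3, 58.3 and 56.95 in knockdown. The groups did not overlap, with knockdown replicate 1 between the controls and the other knockdown libraries. The knockdown mean was 72.3% of the control mean (exact permutation test, two-sided, p = 0.10, the smallest that 3 against 3 libraries allow; 0.13 adjusted over the 4 sums and ratios so tested). CCND1 made up 54.0% ± 1.401 of the sum in control, and 53.8%, 40.9% and 38.1% in knockdown replicates 1, 2 and 3. CCND3 made up 21.9% ± 0.78 in control and 28.2%, 36.6% and 38.1% in these 3 libraries. In knockdown replicates 2 and 3, CCND3 thus stood near CCND1 in level per kilobase, at 21.4 and 21.7 against 23.8 and 21.7.

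**Figure D2:**
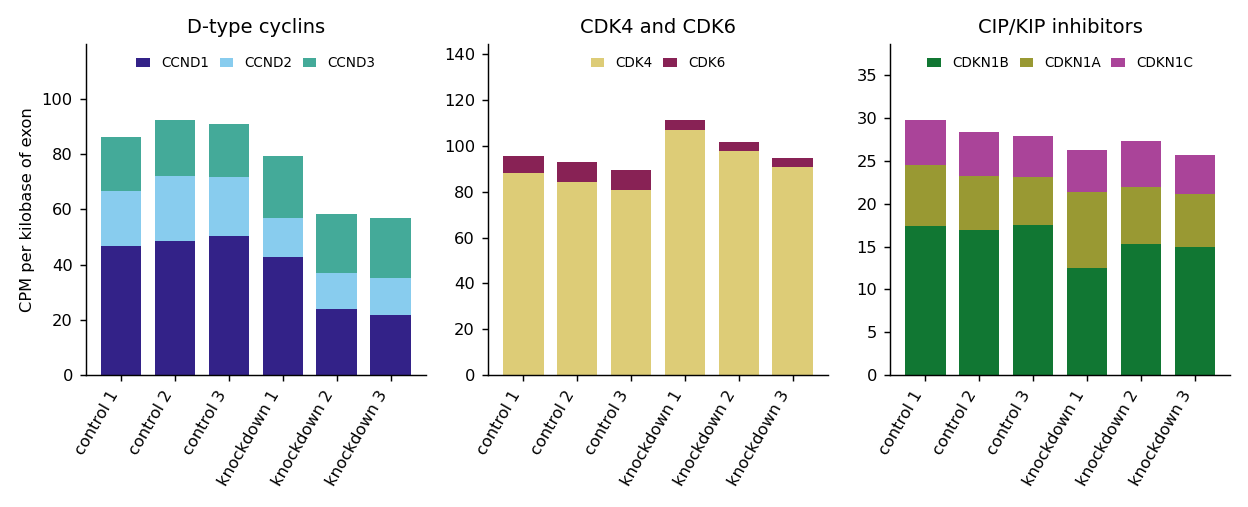
Levels per kilobase of exon (CPM per kilobase, axes from 0) in each library, stacked by gene, for D-type cyclins, for CDK4 and CDK6, and for CIP/KIP inhibitors. The summed D-type cyclin bar is shorter in knockdown replicates 2 and 3 than in the other 4 libraries, and the CDK6 segment is shorter in all 3 knockdown libraries.

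CDK6, a cyclin D kinase (ENSG00000105810, chromosome 7, 92604921 to 92836573), had the largest fall of the 9 genes. The controls had 89.4, 104 and 101 CPM and the knockdown libraries 49.1, 42.8 and 41.5 CPM. The groups were far apart, and each knockdown library was near the others. The log2 fold change was -1.14 ± 0.08 (SE, edgeR adjusted p = 9.5e-09), 45.3% of the control level.

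CDK4, the closest relative of CDK6 and the other cyclin D kinase (ENSG00000135446, chromosome 12, 57747727 to 57756013), went the other way. The controls had 164, 157 and 151 CPM and the knockdown libraries 199, 183 and 169.7 CPM. The groups did not overlap, but the gap between knockdown replicate 3 and control replicate 1 was small. The log2 fold change was 0.23 ± 0.06 (SE, edgeR adjusted p = 0.0046), and with scaling by total counts only it was 0.07 and not called (edgeR adjusted p = 0.35).

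Per kilobase, CDK4 was 11.5, 9.42 and 9.31 times as high as CDK6 in control and 25.4, 26.65 and 25.6 times as high in knockdown. CDK6 made up 9.10% ± 0.95 of the summed level of both kinases in control and 3.72% ± 0.09 in knockdown. The summed level of both kinases averaged 92.7 ± 3.14 in the controls against 102 ± 8.33 after knockdown (SD, n = 3 each), the groups overlapped, and with total counts only the log2 ratio was -0.015 in place of 0.14 (exact permutation test, two-sided, p = 0.20; 0.20 adjusted over the 4 tests). Cyclin D to kinase, as a ratio of the summed levels, was 0.90, 0.99 and 1.02 in control and 0.71, 0.57 and 0.60 in knockdown, without overlap.

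The promoters of CDK4 and CDK6 are shown because the 2 kinases moved in opposite directions under TMM scaling. Each runs from 250 bases before to 50 after a transcription start in RefSeq (GRCh38.p14), in lower case with the E-box CACGTG in capitals, the site bound by MYC with MAX. The first is chr12:57752261-57752560 and the second chr7:92836524-92836823, both on the minus strand.
CDK4: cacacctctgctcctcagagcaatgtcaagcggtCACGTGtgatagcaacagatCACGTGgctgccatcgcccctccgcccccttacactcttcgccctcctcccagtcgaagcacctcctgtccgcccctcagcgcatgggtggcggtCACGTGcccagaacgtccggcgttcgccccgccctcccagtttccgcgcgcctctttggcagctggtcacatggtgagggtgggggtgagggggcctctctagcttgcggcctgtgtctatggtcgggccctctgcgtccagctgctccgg
CDK6: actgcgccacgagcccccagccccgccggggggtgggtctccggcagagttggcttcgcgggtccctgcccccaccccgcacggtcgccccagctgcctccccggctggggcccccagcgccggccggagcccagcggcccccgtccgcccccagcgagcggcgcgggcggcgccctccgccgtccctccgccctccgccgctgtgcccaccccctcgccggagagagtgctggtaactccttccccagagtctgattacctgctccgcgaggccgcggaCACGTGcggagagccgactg
CDK4 held 3 E-boxes, which start 216, 196 and 101 bases before the start site, and CDK6 held 1, which starts 30 bases after it. The second CDK6 start in RefSeq, at position 92833959, had 0 in its window. Of 35116 promoters of this length 7.26% held at least 1 E-box and 0.094% held 3 or more; the word reads the same on both strands. MYC itself fell from 186 ± 12.6 to 116 ± 5.60 CPM (log2 -0.68 ± 0.06, edgeR adjusted p = 1.4e-07), and MYCN did not pass the test, at 176 ± 3.66 and 182 ± 22.7 CPM. Their part in the CDK4 and CDK6 values was not tested. The CDK4 window and that of the first CDK6 start also held 3 GC boxes each (GGGCGG, both strands searched, as for all words here), a word found in 45% of promoters. Neither held the E2F-type word GGCGGGAA (3.16%), CCAAT (34.6%), TATAAA (11.5%) or the FOXO-type word GTAAACA (3.42%). The promoter reference used held none for CCND1, CCND2 or CDKN1C, so these genes were not matched. Promoters of CCND3, CDKN1A, CDKN1B, CDKN2C and a start inside RB1 were also matched. Of these windows, 2 of the 3 of CDKN2C held 1 E-box each, 220 and 69 bases before the start site, and the others held none. GTAAACA was found in 1 of the 3 CCND3 windows and GGCGGGAA in 1 of the 3 CDKN2C windows, and in none of the other matched windows.

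**Figure D3:**
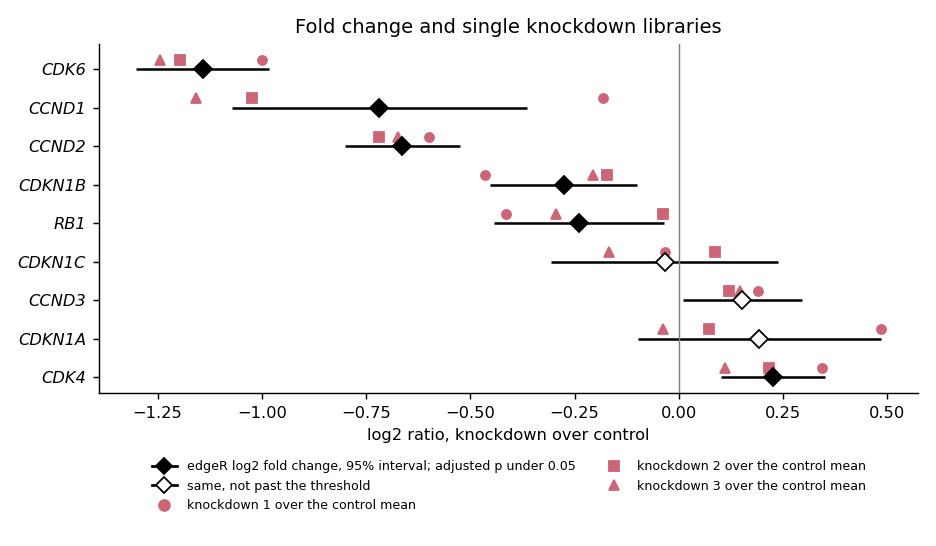
Log2 fold change of each tested gene with its 95% interval (black; filled where called) and the log2 ratio of each knockdown library to the control mean (red). CDK6 and CCND2 have all 3 libraries close together, CCND1 has replicate 1 at -0.18 against -1.02 and -1.16, and CDKN1A has replicate 1 at 0.49.

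CDKN1B, the inhibitor p27 (ENSG00000111276, chromosome 12, 12685498 to 12722369), was the most abundant CDK inhibitor of the 4. The controls had 41.9, 40.9 and 42.3 CPM and the knockdown libraries 30.2, 37.0 and 36.1 CPM. The groups did not overlap, and here knockdown replicate 1 was the lowest library. Its log2 fold change was -0.28 ± 0.08 (SE, edgeR adjusted p = 0.011).

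CDKN1A, the inhibitor p21 (ENSG00000124762, chromosome 6, 36676460 to 36687337), did not pass the test. The controls had 15.02, 13.3 and 11.9 CPM and the knockdown libraries 18.8, 14.1 and 13.1 CPM. The groups overlapped, with knockdown replicate 1 above the rest. The log2 fold change was 0.19 ± 0.14 (SE, edgeR adjusted p = 0.26) with a 95% interval of -0.10 to 0.48, and it was 0.02 without knockdown replicate 1.

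CDKN1C, the inhibitor p57 and an imprinted gene (ENSG00000129757, chromosome 11, 2883213 to 2885775), had 9.32, 9.01 and 8.425 CPM in the controls and 8.72, 9.46 and 7.94 CPM in the knockdown libraries. The groups overlapped, with log2 -0.03 ± 0.13 (SE, edgeR adjusted p = 0.84) and a 95% interval of -0.31 to 0.24. CDKN2C, the INK4 inhibitor p18 (ENSG00000123080, chromosome 1, 50960745 to 50974634), had raw counts of 6, 0 and 1 in control and 5, 1 and 0 in knockdown. A count of 0 allows up to 3 counts, or 0.142 to 0.162 CPM in these libraries, so no fold change is given.

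Per kilobase, the summed CIP/KIP level averaged 28.6 ± 0.95 in the controls against 26.4 ± 0.86 after knockdown (SD, n = 3 each), without overlap (exact permutation test, two-sided, p = 0.10; 0.13 adjusted over the 4 tests). CDKN1B supplied 60.4% ± 2.22 of it in control and 54.1% ± 5.72 in knockdown, where replicate 1 was at 47.6%. The 4 CDK inhibitors together had 0.31, 0.30 and 0.31 times the level of CDK4 plus CDK6 in control and 0.24, 0.27 and 0.27 times in knockdown (exact permutation test, two-sided, p = 0.10; 0.13 adjusted over the 4 tests). All 3 knockdown libraries were below all controls in this ratio.

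RB1, the pocket protein that D-type cyclin kinases act on (ENSG00000139687, chromosome 13, 48303744 to 48599436), had 33.5, 37.85 and 35.97 CPM in the controls and 26.85, 34.9 and 29.2 CPM in the knockdown libraries. The groups overlapped, since knockdown replicate 2 was above control replicate 1. Its change, -0.24 ± 0.10 in log2 (SE, edgeR adjusted p = 0.047), lay at the edge of the threshold. The call was lost with DESeq2 (DESeq2 adjusted p = 0.052), with RLE size factors (edgeR adjusted p = 0.051), and without control replicate 1, 2 or 3 (0.050, 0.18 and 0.11) or knockdown replicate 1 or 3 (0.13 and 0.14). With DESeq2 or RLE factors the log2 fold change stayed at -0.23, while it was -0.15 without knockdown replicate 1.

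In control, the order of the genes per kilobase of exon was CDK4 (84.3), CCND1 (48.4), CCND2 (21.6), CCND3 (19.6), CDKN1B (17.3), CDK6 (8.42), RB1 (7.5), CDKN1A (6.34), CDKN1C (5.03) and CDKN2C (0.11). The values of CCND2 and CCND3, of CDK6 and RB1, and of RB1 and CDKN1A overlapped between neighbours. In knockdown CDK4 (98.6) still led, followed by CCND1 (29.4) and CCND3 (21.8), which overlapped, then CDKN1B (14.3) and CCND2 (13.6), which also overlapped. CDKN1A (7.23) and RB1 (6.35) overlapped, and CDKN1C (4.91) was next. CDK6, at 3.81, was the lowest gene but CDKN2C (0.10), and each of its knockdown libraries was below each of those of CDKN1C.

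Of the 5 lower genes, 4 had the greatest exon lengths of the 9. CDK6 has 11663 bases of exon in the deposited table, CCND2 6493, RB1 4768 and CCND1 4238, and these 4 had log2 fold changes of -1.14 to -0.24. The other 5 tested genes have 1773 to 2411 bases, with log2 fold changes of -0.28 (CDKN1B) to 0.23 (CDK4). Over the 9 genes Spearman's rho of exon length and log2 fold change was -0.80, while over the 14178 protein-coding genes tested it was -0.09. Genes are not independent replicates, and all these values come from the same 6 libraries. Among coding genes of 1000 to 2000 bases the median log2 fold change was 0.05 and 21.9% were called lower. It was -0.03 with 30.4% lower at 4000 to 6000 bases, the bin of CCND1 and RB1. At 6000 to 8000 bases, the bin of CCND2, it was -0.06 with 31.9% lower. Among those of 8000 to 10000 bases, which include none of the 9 genes, it was -0.09 and 36.5% were lower. Among those of at least 10000 bases, which include CDK6, it was -0.07 and 32.7% were lower. The fold change of CDK6 lay below the 10th percentile of coding genes of at least 10000 bases, which was -0.67. Control libraries also differed among themselves by exon length. The median log2 ratio of control replicate 1 to the other controls was 0.03 at 1000 to 2000 bases and -0.04 at 10000 or more. For control replicate 2 these medians were -0.008 and 0.03, and for control replicate 3 they were -0.02 and 0.006.

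**Figure D4:**
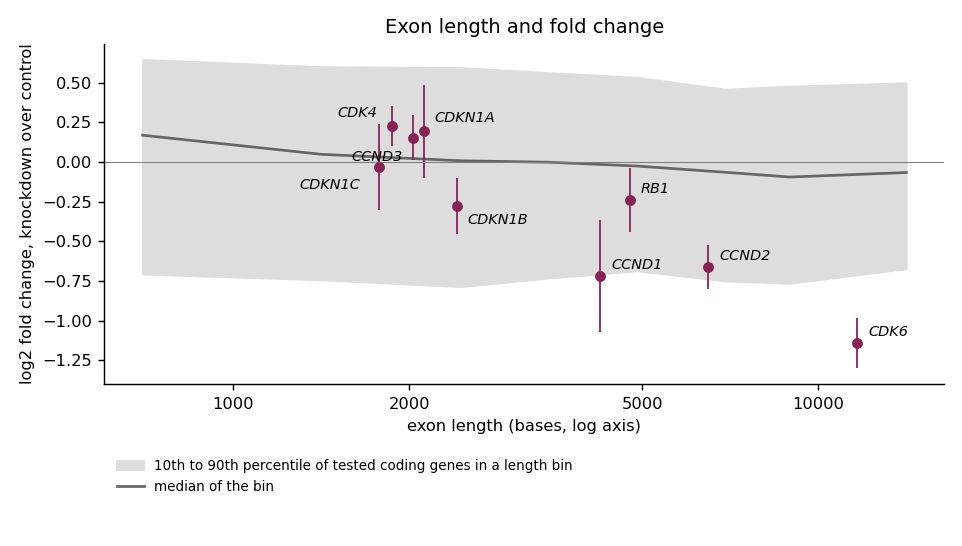
Exon length in bases (log axis) against the log2 fold change of the 9 tested genes with 95% intervals. Behind them are the median (line) and the 10th to 90th percentile (grey) of the tested coding genes in length bins. Bins are drawn at their geometric middle, except that the positions of the shortest and of the open longest bin were chosen for display. The medians of the bins run from 0.17 for the shortest genes to -0.09 at 8000 to 10000 bases, and CDK6 lies under the grey band.

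SAMD4A belongs to the Smaug family, whose founding members in Drosophila and yeast bind RNA hairpins with a CNGG loop. One coding transcript per gene (GENCODE 29, GRCh38) was scanned in its 3′ UTR for such hairpins, as CNGG with up to 3 further loop bases closed by at least 5 pairs, G with U allowed. The longest stem of each gene that held any (for CDK6, where all stems have 5 pairs, the one with the loop CUGGCC) is shown, since these are the elements this protein family is known to read, with the loop in capitals.
CDK6, chr7:92614512-92614527, minus strand: cuuuuCUGGCCaaaag
CCND1, chr11:69653583-69653600, plus strand: ggcuggCGGGGGccggcc
CCND2, chr12:4303964-4303982, plus strand: uugcuagCAGGAuuggcaa
CCND3, chr6:41935219-41935239, minus strand: ugguaaccCUGGUgguugcug
CDKN1B, chr12:12721575-12721596, plus strand: ugggagauCUGGUGaucuccca
CDKN1A, chr6:36686013-36686033, plus strand: uaagagugCUGGGcauuuuua
The CDKN1B, CCND3 and CDKN1A hairpins shown each close their loop with 8 pairs, the most that the scan counted. Hairpins numbered 4 in CDK6, 3 each in CCND1 and CDKN1A, 2 in CCND2 and 1 each in CCND3 and CDKN1B, and 0 were found in CDK4, CDKN1C, CDKN2C and RB1. The 6 genes with a hairpin thus include CDK6, CCND1, CCND2 and CDKN1B, which were called lower, and CCND3 and CDKN1A, which were not called. The UTRs of CDK6, CCND2 and CCND1 were 10219, 5341 and 3192 bases long, and those of the other genes 363 to 1819. Of 14160 tested coding genes 44.7% held at least 1 such hairpin, rising from 22.2% with a UTR under 1000 bases to 81.6% with one of 3000 bases or more. Per kilobase of UTR there were 0.39 in CDK6, 0.37 in CCND2, 0.94 in CCND1 and 0.74 in CDKN1B, which were called lower. There were 0.99 in CCND3 and 1.95 in CDKN1A, which were not called, against 0.52 over all tested coding genes. Binding was not measured.

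Several of the genes overlap others on the opposite strand, and the sources used here do not state the strand setting of the counting, so such pairs are uncertain as single genes. LTO1, which shares 1399 bases with the 3′ end of CCND1, fell from 36.9 ± 1.73 to 20.1 ± 0.43 CPM (log2 -0.88 ± 0.08, edgeR adjusted p = 2.8e-07). Unlike CCND1 it was even across the knockdown libraries, at 20.1, 20.5 and 19.6 CPM. TSPAN31, which overlaps CDK4 by 2493 bases, fell from 17.01 ± 2.22 to 12.5 ± 0.82 CPM (log2 -0.45 ± 0.11, edgeR adjusted p = 0.0043). It had 219 to 397 raw counts a library, where CDK4 had 3143 to 4004, and MARCHF9, at the other end, did not pass (edgeR adjusted p = 0.56). Within RB1, RCBTB2 rose by 0.38 ± 0.12 (SE, edgeR adjusted p = 0.016) and LPAR6 was at -0.48 and not called (edgeR adjusted p = 0.085). GPR19, which overlaps CDKN1B, did not pass (edgeR adjusted p = 0.20). CCND2-AS1 had 87 counts, CDK6-AS1 46 and DINOL, inside CDKN1A, 2 counts over the 6 libraries.

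Genes around the module were described with lists of the same pathway. Of all tested genes 26.1% were called higher and 25.6% lower. Among pocket proteins and E2F factors 6 of 12 were higher and 1 lower (median log2 fold change 0.08), but with total counts only 1 was higher and 5 were lower, and with upper-quartile scaling 4 and 2. E2F2, an activator E2F, fell from 18.8 ± 2.18 to 11.9 ± 1.08 CPM (log2 -0.66 ± 0.11, edgeR adjusted p = 0.00018). E2F4, which pairs with pocket proteins in resting cells, was higher by 0.32 ± 0.06, E2F3, an activator, by 0.29 ± 0.07 and the E2F partner TFDP1 by 0.27 ± 0.06 (edgeR adjusted p = 0.00026, 0.0031 and 0.00087). The E2F3 and TFDP1 calls did not hold under total counts (edgeR adjusted p = 0.14 and 0.11).

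In the later G1 engine of cyclin E, cyclin A and CDK2, 4 of 9 members were called, against 51.7% of all tested genes. All 4 were higher and 0 lower (median 0.16), and at an unadjusted p under 0.05, 1 was lower. This balance also turned with total counts only, to 1 higher and 2 lower, and was 3 higher and 1 lower with upper-quartile scaling or a minimum mean of 50 counts. CCNE1, the cyclin that carries cells into S phase with CDK2, rose from 47.4 ± 1.73 to 66.4 ± 3.10 CPM (0.49 ± 0.06, edgeR adjusted p = 1.3e-05). SKP2, which marks p27 for destruction, was higher by 0.26 ± 0.06 (edgeR adjusted p = 0.0034) and CCNA2 by 0.16 ± 0.05 (edgeR adjusted p = 0.012). Both calls were lost with total counts only, where the log2 fold changes were 0.10 and 0.0011, and that of CCNA2 also with upper-quartile scaling. CCNA1, at 1.62 ± 0.34 CPM in control, was higher by 0.83 ± 0.30 (edgeR adjusted p = 0.031), a call lost with total counts only and without control replicate 1, 2 or 3 or knockdown replicate 2. CDK2 did not pass, at 38.3 ± 4.28 and 42.9 ± 1.48 CPM (edgeR adjusted p = 0.11).

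Among G1/S target genes of E2F, 10 of 12 were higher and 0 lower (median 0.41; at an unadjusted p under 0.05, 0 were lower), against 26.1% and 25.6% of all tested genes. SLBP, which binds histone messages, rose by 0.76 ± 0.07, thymidine kinase TK1 by 0.64 ± 0.06, the helicase subunit MCM2 by 0.57 ± 0.05 and the uracil glycosylase UNG by 0.53 ± 0.06. These targets thus rose in the same libraries in which CCND1, CCND2 and CDK6 fell. With total counts only, 7 of the 12 were called.

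**Figure D5:**
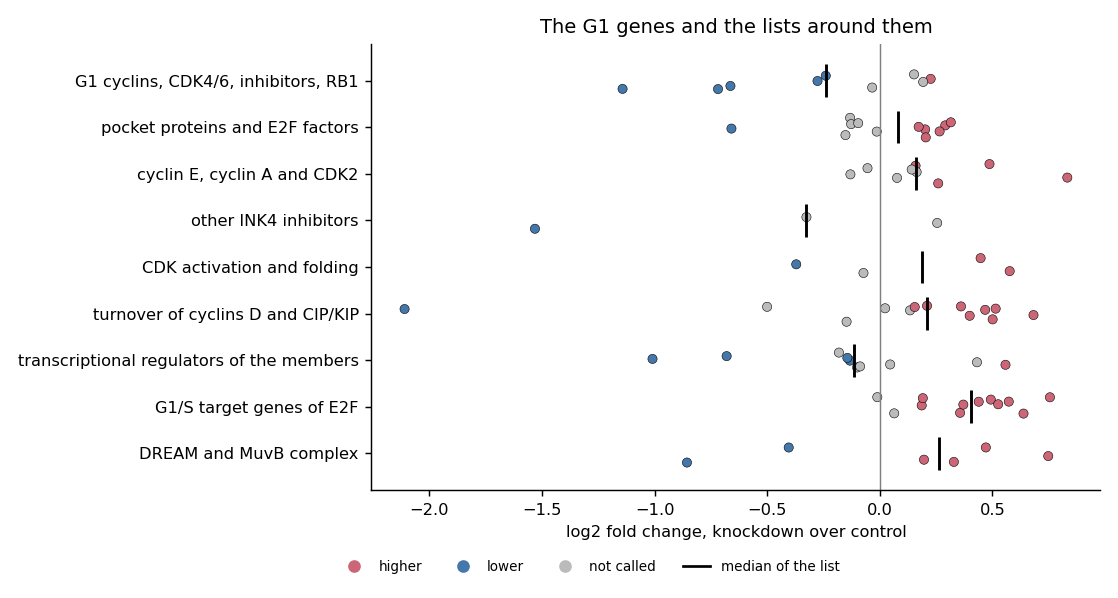
Log2 fold changes, knockdown over control, of the 9 tested G1 genes and of each list around them, with 1 point per gene (red higher, blue lower, grey not called) and a bar at the median. The G1 genes have their median at -0.24 and the E2F targets at 0.41.

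Factors of the DREAM and MuvB complex, which represses cell cycle genes in quiescent cells and activates them in later phases, split. Of 6 tested members 4 were higher and 2 lower (median 0.26), or 2 and 2 with total counts only: the histone chaperone subunit RBBP4 rose by 0.75 ± 0.05 and LIN52 by 0.47 ± 0.14, while the DNA-binding subunit LIN54 fell by 0.86 and LIN9 by 0.40. The LIN52 call was lost without control replicate 1 or 2 and with total counts only (edgeR adjusted p = 0.051, 0.079 and 0.080). Among factors that activate or fold CDKs, 2 of 4 were higher and 1 lower (median 0.19), or 2 and 2 with total counts only. For both lists, the share of all tested genes was 26.1% higher and 25.6% lower. CDC37, the co-chaperone that delivers CDK4 to HSP90, rose from 185 ± 10.9 to 276 ± 12.2 CPM (0.58 ± 0.05, edgeR adjusted p = 3.1e-07). CDK7, the CDK-activating kinase, was higher by 0.45 ± 0.08, while its assembly factor MNAT1 was lower (log2 -0.37 ± 0.09; edgeR adjusted p = 0.00025 and 0.0035).

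Among genes of D-type cyclin and CIP/KIP turnover 8 of 13 were higher and 1 lower (median 0.21), against 26.1% and 25.6% of all tested genes. With total counts only 6 were higher and 2 lower, and with upper-quartile scaling 7 and 2. AMBRA1, the ligase receptor that marks D-type cyclins for degradation, rose from 38.1 ± 2.39 to 54.4 ± 0.70 CPM (0.51 ± 0.07, edgeR adjusted p = 1.7e-05). FBXO31, an F-box protein reported for cyclin D1, rose by 0.50 ± 0.09, and the ligase subunits RBX1 and SKP1 by 0.68 ± 0.07 and 0.47 ± 0.06. FBXO4 was the lower member, at 1.43 ± 0.56 CPM in control and 0.33 ± 0.29 CPM in knockdown (-2.11 ± 0.59, edgeR adjusted p = 0.0071). It had 0 counts in knockdown replicate 1 and is named after its values were seen. Protein levels were not measured.

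Among transcriptional regulators of these genes 1 of 10 was higher and 4 lower (median -0.12), against 26.1% and 25.6% of all tested genes. FOXO3, a forkhead factor known to activate CDKN1B and to repress D-type cyclins, fell from 60.8 ± 0.48 to 30.2 ± 1.63 CPM (-1.01 ± 0.07, edgeR adjusted p = 1.3e-08). Its paralog FOXO1 rose from 41.2 ± 2.51 to 60.65 ± 1.80 CPM (0.56 ± 0.07, edgeR adjusted p = 5.8e-06). SP1 (log2 -0.14 ± 0.05, edgeR adjusted p = 0.026), which binds GC boxes, lost its call without control replicate 2 or 3 or knockdown replicate 2 or 3.

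Against 26.1% and 25.6% of all tested genes, 0 of the 3 other INK4 inhibitors were higher and 1 was lower. All were below 3 CPM on average, and they are named after their values were seen. CDKN2B, the lower one, was at 1.29 ± 0.37 CPM in control and 0.44 ± 0.28 CPM in knockdown (-1.53 ± 0.44, edgeR adjusted p = 0.0088), and the call was lost without control replicate 3. CDKN2A averaged 0.86 ± 0.19 CPM in the controls, and knockdown replicates 1, 2 and 3 had 2.69, 0.31 and 0.054 CPM, so that it too was high in replicate 1 and low in the other two. It was not called over all 3 libraries (edgeR adjusted p = 0.79). CDKN2D was at 2.52 ± 0.95 and 2.01 ± 0.10 CPM and did not pass (edgeR adjusted p = 0.38).

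The coding genes whose log2 CPM over the 6 libraries had the highest Pearson correlation with the 3 most changed genes were listed among 11283 candidates with a mean of at least 5 CPM. They were BLOC1S5 and CPSF2 for CDK6 (r = 0.999 each), DMRTA1 and PTGFRN for CCND1 (0.999 and 0.998), and CEP44 and CTDSP2 for CCND2 (0.998 each). A correlation above 0.95 was held by 1329 genes for CDK6, 1045 for CCND2 and 203 for CCND1. DMRTA1 shared the split of CCND1, with 15.9 ± 0.55 CPM in the controls and 14.7, 10.2 and 9.88 CPM in knockdown replicates 1, 2 and 3. The 6 points share the contrast between the 2 groups, and the correlations describe only these libraries.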

How the data were processed

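The authors deposited 1 table of raw counts per Ensembl gene, with exon length, symbol, type and coordinates. HISAT2, HTSeq and GRCh38 are named in the submitters' processing notes; the sources used here do not state versions, counting options or the strand setting. Columns were matched to samples by title.

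Counts were analysed in R 4.3.3 with edgeR 4.0.16 (filterByExpr, TMM, quasi-likelihood test, two-sided, 3 against 3 libraries, Benjamini-Hochberg over 17258 genes, threshold 0.05). CPM are TMM-scaled; SE and 95% intervals come from each log2 fold change and its F value. Sums per kilobase used exact permutation tests. Alternatives were DESeq2 1.42.0, limma-voom (limma 3.58.1), other scalings, filters, a replicate block and each library left out. Scripts were tested on simulated counts. Replicates differed beyond sampling noise (chi-square per degree of freedom 2.76 to 7.69 within groups). The labels do not say that replicates were separate cultures, so p-values measure only how these samples vary, possibly for technical reasons. Counting limits cover counting error only. Members and lists were chosen with earlier results of these data known. Named are all members, up to 4 called genes per list (mean CPM at least 1, largest change), overlapping genes and the 2 most alike genes for each of 3 members; all other genes named were chosen after their values were seen. The values of 1 list gene are not reported here.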

Additional observations from a re-analysis of the deposited data

How the results depend on the processing

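CCND2, CDK6 and CDKN1B kept their direction and their call under all 14 alternatives, CCND1 under all but DESeq2, and CDK4 under all but total counts only. Of the 5 lower members, DESeq2 called 3, and with total counts only 0 members were higher. That scaling moved the median of all genes from -0.01 to -0.17 and gave 2704 genes higher and 6410 lower; CCND3 then stood at -0.0057, the sum of CDK4 and CDK6 at -0.015 (log2), and 8 transcriptional regulators were called. With a mean of at least 50 counts, 0 of the other INK4 inhibitors were called, since they were not tested. Without 1 library each, 5 to 6 members, 4 to 7 pocket protein and E2F genes, 0 to 2 other INK4 inhibitors and 3 to 5 regulators were called, and CDKN1C lay between -0.091 and 0.035 (without knockdown replicates 2 and 3), with 0.00015 without control replicate 1. The labels do not say that replicate numbers pair the samples. Deviations of same-numbered libraries correlated at -0.03, 0.002 and -0.05, which cannot show whether these libraries were prepared together. With the replicate block 8434 genes and the same number of members, 6, were called. The sums had 3 against 3 libraries, so no setting could take them past 0.10.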
